A study of Mus musculus with 2 samples.

Results

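The genes described here are 10 genes of T cells and natural killer (NK) cells: Cd3d, Cd3e, Cd3g, Lck, Cd8a, Cd2, Cd5, Icos, Nkg7 and Gzma. They are 10 of the 31993 genes or unnamed transcripts that the array holds. They were chosen by name, with earlier results of these data known. All non-control probes whose accession mapped to one of these symbols were taken, which gave 14 of the 41174 probes on the array. The samples were ventral prostates of FVB/N mice (the strain is also written FBV/N in the labels) at 6 months of age. The wild-type group was 1 RNA pool of 6 mice, and the transgenic group was 1 RNA pool of 6 mice with an ARR2PB-miR32 transgene. The ARR2PB promoter derives from the probasin gene and is active in prostate epithelium under androgen, so the transgene is not built to be expressed in lymphocytes. The tissue is labelled ventral prostate, while the labels' protocol text speaks of ventral or dorsolateral lobes. Both pools were hybridised together to 2 two-colour Agilent whole mouse genome arrays. Array 1 carried the wild-type pool in Cy5 and the transgenic pool in Cy3. Array 2 carried them the other way round. The arrays are technical replicates of the same pair of pools, so no difference below has a check across mice, no test was run, and each SD is the spread of the 2 arrays (n = 2).

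T cells recognise peptides through the T cell receptor, whose signal is carried into the cell by the CD3 chains and started by the kinase LCK. CD8 and CD4 are coreceptors that hold the receptor on its ligand, while CD2, CD5 and ICOS set how strongly the cell responds. NK cells and cytotoxic T cells kill targets with granules that hold perforin and granzymes. In a normal prostate these cells are sparse and lie in the stroma and between epithelial cells. The transgene encodes miR-32, whose mature strand is shown with its seed (bases 2 to 8) in capitals beside another member of its seed family, as held by RefSeq (GRCm38.p6). The array does not measure either microRNA.
mmu-miR-32-5p: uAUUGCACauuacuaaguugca
mmu-miR-92a-3p: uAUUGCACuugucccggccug

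Signals of these genes lay near the lower end of the arrays. Net intensities below are the median pixel value of a spot minus that of its local background. Over 153 negative control spots the 95th percentile of net intensity was 14.1 (wild type) and 10.7 (transgenic) in Cy3, and 17.7 and 17.5 in Cy5. Cy3 was the more sensitive dye, with 28934 (wild type) and 28005 (transgenic) probes well above background by the scanner software's own flag, against 17433 and 16172 in Cy5. A probe counted as detected where at least 1 of the pools passed that flag on array 1 and on array 2 alike. The median net Cy3 intensity over all probes was 72.0 on array 2 and 51.5 on array 1, so raw Cy3 values of the wild-type pool run higher in general.

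Most of the T and NK cell genes were lower in the transgenic pool. A gene was called when its mean log2 ratio reached 1 in size and each array alone showed 1.5-fold or more the same way. So called, 6 of the 10 genes were lower and 0 higher. These were Cd3d, Lck, Cd2, Cd5, Icos and Nkg7, with fitted ratios from 2.04-fold to 2.95-fold lower. The transgenic signal behind them was above background on both arrays for Nkg7, on 1 of 2 for Cd3d, Lck, Cd2 and Cd5, and on neither for Icos. The rule called 491 of 13899 detected genes lower (3.53%) and 151 higher (1.09%). Cd3g was lower on both arrays without reaching the rule, Cd3e did not differ in a settled direction, and Cd8a and Gzma were not detected. In a bulk pool, fewer T or NK cells and less RNA per cell cannot be told apart.

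Detection itself leaned on the wild-type pool. Of the 8 detected genes, 6 passed only through the wild-type pool, while Cd3e and Nkg7 had signal above background in all 4 measurements. Among all genes that passed only through the wild-type pool the rule called 15.7% lower, and among genes detected in both pools 2.22%. The median log2 ratio of all genes that passed only through the wild-type pool was -0.29. Of genes that passed only through the transgenic pool it called 5.30% higher. Among genes within the intensity range of the detected members it called 4.11% lower and 0.731% higher. Probe by probe, all 14 probes were well above background in the wild-type pool in Cy3 and 9 of 14 in the transgenic pool in Cy3. In Cy5 the wild-type pool was above background for 10 probes and the transgenic pool for 2. Net Cy3 intensity was lower in the transgenic pool for 14 of 14 probes, against 77.8% of all probes, and net Cy5 intensity for 13 of 14, against 52.1%. For 8 of 14 probes the wild-type Cy3 value was at least 5 times the transgenic one, which held for 1.70% of all probes.

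**Figure D1:**
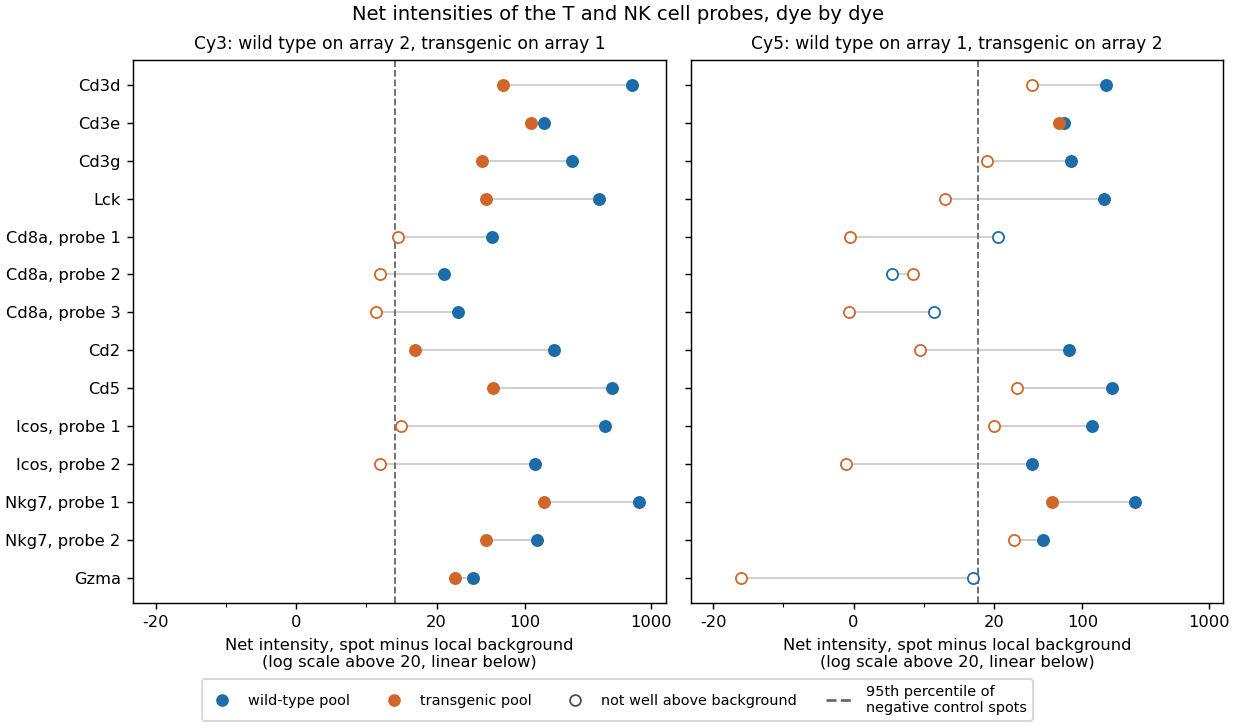
Net intensity (spot minus local background) of the 14 probes, in Cy3 on the left and Cy5 on the right, on an axis that is logarithmic above 20 and linear below. Wild-type points lie to the right of transgenic points for 14 of 14 probes in Cy3 and for 13 of 14 in Cy5, and open points mark signals not well above background; the dashed line is the higher of the 2 pools' 95th percentiles of negative control spots in that dye.

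The CD3 chains carry the signal of the T cell receptor, and the 3 genes that encode the delta, epsilon and gamma chains lie next to each other on mouse chromosome 9. Cd3d (probe A_51_P285206) gave net intensities of 153 in Cy5 and 703 in Cy3 for the wild-type pool, and 67.0 in Cy3 and 40.0 in Cy5 for the transgenic pool. In either dye the wild-type value was the higher one, and the transgenic Cy5 value was not well above background. The log2 ratio of transgenic over wild type was -1.54 on array 1 and -1.50 on array 2, a mean of -1.52 ± 0.03. Cd3g (probe A_51_P260889) had the same direction, with wild-type values of 82.0 (Cy5) and 234.5 (Cy3) and transgenic values of 46.0 (Cy3) and 19.0 (Cy5). Its log2 ratios of -1.02 and -0.78 gave a mean of -0.90 ± 0.17, short of the rule. Cd3e (probe A_51_P455681) stood apart from both, with wild-type values of 72.0 (Cy5) and 141 (Cy3) against transgenic values of 112 (Cy3) and 65.0 (Cy5). Its probe was well above background in each of the 4 measurements, and within each dye its values in the pools lay close together. The log2 ratio was -0.36 on array 1 and 0.38 on array 2, with a mean of 0.0070 ± 0.53, so its sign followed the dye. The reason for the difference between the Cd3e probe and those of its partner chains was not tested. Cd247, which encodes the zeta chain of the same complex, was not detected, with wild-type values of 34.5 (Cy5) and 89.0 (Cy3) and transgenic values of 18 (Cy3) and 13.0 (Cy5).

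The promoters of the 3 CD3 genes are shown because 2 of these neighbouring genes were lower on both arrays and the third was not. Each window runs from 250 bases before to 50 bases after the annotated start and is taken from RefSeq (GRCm38.p6), a later build than the mm9 annotation named in the array files. RefSeq windows were found for 8 of the 10 genes. Capitals mark matches, on either strand, to short motifs of transcription factor families known for control of lymphocyte genes. For ETS factors the letters searched were GGAAG. For RUNX factors, which bind many T cell promoters and enhancers, they were TGTGGT. For GATA factors, a family that includes the T cell regulator GATA3, they were AGATAA. Matches of different motifs could overlap.
Cd3d (chr9:44981536-44981835, plus strand): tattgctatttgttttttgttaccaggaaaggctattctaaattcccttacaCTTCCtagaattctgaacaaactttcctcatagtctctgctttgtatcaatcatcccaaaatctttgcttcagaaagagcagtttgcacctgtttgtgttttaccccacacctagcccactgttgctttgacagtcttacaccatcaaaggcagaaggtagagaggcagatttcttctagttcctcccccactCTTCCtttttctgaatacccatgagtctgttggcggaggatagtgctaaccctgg
Cd3g (chr9:44980382-44980681, minus strand): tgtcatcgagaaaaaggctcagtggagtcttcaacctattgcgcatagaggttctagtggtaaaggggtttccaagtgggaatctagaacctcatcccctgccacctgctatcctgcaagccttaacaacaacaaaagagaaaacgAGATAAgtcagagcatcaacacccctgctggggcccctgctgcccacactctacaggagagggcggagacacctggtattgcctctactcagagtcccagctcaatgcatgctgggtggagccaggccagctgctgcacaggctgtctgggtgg
Cd3e (chr9:45009562-45009861, minus strand): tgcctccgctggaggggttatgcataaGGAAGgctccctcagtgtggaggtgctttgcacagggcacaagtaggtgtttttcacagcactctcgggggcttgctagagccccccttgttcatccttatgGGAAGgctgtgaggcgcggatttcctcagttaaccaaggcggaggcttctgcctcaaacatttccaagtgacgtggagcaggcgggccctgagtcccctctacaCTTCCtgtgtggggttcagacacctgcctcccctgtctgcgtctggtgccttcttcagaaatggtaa
The Cd3d window held 2 matches to the ETS letters and the Cd3e window 3, while the Cd3g window held 0 and instead 1 match to the GATA letters. Of 32851 promoter windows of this length in the table, 71.4% held the ETS letters, 16.8% the RUNX letters and 11.2% the GATA letters. A match is a description of the letters only.

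LCK is the kinase that phosphorylates the CD3 chains when the receptor is engaged. Lck (probe A_51_P141288) had wild-type values of 148 (Cy5) and 383.5 (Cy3) and transgenic values of 49.0 (Cy3) and 13.0 (Cy5). The wild-type value was the higher one in either dye, as it was for 77.8% of all probes in Cy3 and 52.1% in Cy5. The transgenic Cy5 value lay below the 95th percentile of negative controls. The log2 ratios were -1.67 and -1.34, a mean of -1.51 ± 0.23, or 2.84-fold lower.

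Other genes of receptor signalling were mostly lower with Lck. Of 16 detected genes on this list besides Lck, 9 were called lower and 0 higher, beside 3.53% and 1.09% of all genes, with a median of -1.05 against 0.01 over all detected genes. With Lck, 17 of 17 were below 0 on both arrays, beside 27.3% of all detected genes. Most of the 17 passed detection only through the wild-type pool, among them Lck, Ptprc, Cd6, Lat and Zap70. Among all genes that passed in that way the rule called 15.7% lower, and their median log2 ratio was -0.29. The 27.3% covers genes detected through either pool. Rac2 and Ptprcap were detected in both pools, where the rule called 2.22% of all genes lower. Ptprc, the CD45 phosphatase of all leukocytes, stood at -2.57 ± 0.03, and its other detected probes gave -1.12 and -1.004. Cd6, a scavenger-family receptor of T cells related to CD5, stood at -1.82 ± 0.15. Rac2, a GTPase of blood cells, stood at -1.70 ± 0.46, and Ptprcap, a CD45-associated protein, at -1.55 ± 0.12. Several of these genes are expressed in all leukocytes and not in T cells alone. Lat, the adaptor that gathers the signalling complex, was at -1.18 ± 0.15. Zap70, the kinase that docks on phosphorylated CD3 chains, was at -1.11 on array 1 and -0.34 on array 2 and was not called.

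The coreceptors gave no measurable difference. Cd8a has 3 probes, and none was detected. Its brightest probe (A_51_P345121) gave 21.5 (Cy5) and 55.0 (Cy3) in the wild-type pool and 14.5 (Cy3) and -0.50 (Cy5) in the transgenic pool, with a mean log2 ratio of -0.41 ± 0.16. The second probe (A_52_P150547) gave -0.01 ± 0.03. The third (A_52_P443334) is printed as 10 spots, which shows the spread of a dim probe. In Cy3 the wild-type spots ranged from 20 to 40 with a median of 28.8 over 10 spots, and the transgenic spots from 5.50 to 16 with a median of 12 over 9 spots. These Cy3 ranges did not overlap, but the spots are copies within 1 array and not replicates of a pool. Net Cy3 was also lower in the transgenic pool for 77.8% of all probes. In Cy5 the ranges of the spots overlapped, from 2.50 to 23.0 in the wild-type pool and from -15.5 to 19.5 in the transgenic pool. For all 3 probes the transgenic pool was above background on neither array and the wild-type pool on 1 of 2, so no fold is given for Cd8a. Cd4, the coreceptor of helper T cells, was not detected either, with Cy3 values of 40.3 in the wild-type pool and 28.3 in the transgenic pool. No probe was matched to Cd8b1.

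Cd2, Cd5 and Icos, which encode receptors of adhesion and costimulation, were each called lower. CD2 is the adhesion receptor that binds CD48 on partner cells. Cd2 (probe A_51_P126067) had wild-type values of 78.5 (Cy5) and 170 (Cy3) and transgenic values of 17.0 (Cy3) and 9.5 (Cy5). Its log2 ratios were -1.29 and -0.76, and the mean of -1.03 ± 0.37 lay just inside the rule. CD5 dampens receptor signalling in T cells and in a subset of B cells. Cd5 (probe A_51_P167263) had wild-type values of 171.5 (Cy5) and 493 (Cy3) and transgenic values of 56.0 (Cy3) and 30.5 (Cy5). The log2 ratios of -1.79 and -1.26 gave a mean of -1.52 ± 0.37.

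ICOS is a costimulatory receptor that appears on activated and follicular helper T cells. Its brighter probe (A_52_P682768) gave 119 (Cy5) and 434 (Cy3) in the wild-type pool and 15.0 (Cy3) and 20 (Cy5) in the transgenic pool. The dimmer probe (A_51_P371279) gave 40 and 121 in the wild-type pool and 12 and -1 in the transgenic pool. For both probes the wild-type signal passed the background flag on each array and the transgenic signal on none, a pattern of 0.129% of all probes. The mean log2 ratio of the brighter probe was -1.56 ± 0.34, from -1.80 and -1.32, and that of the dimmer probe -0.78 ± 0.09. These ratios, 2.95-fold and 1.72-fold lower in this processing, rest on a transgenic signal that was not above background, so their size is uncertain. A floor was also applied after loess and Aquantile scaling. It took the transgenic level, per array, as its own signal or the dimmest signal that passed the flag, whichever was brighter. The floor changed neither value. It was the dimmest of all flagged signals, so it cannot decide whether detection limits these ratios. Among transgenic probes that passed the flag, the 5th percentile of net intensity was 22 in Cy3 and 43.5 in Cy5. The transgenic values of both Icos probes lay below these. Some other processing gave smaller values for the brighter probe, with log2 ratios of -1.38 without background subtraction and -1.02 in Cy5 alone. Other forms gave larger ones, such as -2.52 in Cy3 alone and -4.45 with the scanner software's processed signals.

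The rest of the costimulation and checkpoint list did not reach the rule. Of 9 detected genes the 3 called lower were Cd2, Cd5 and Icos themselves, and the other 6 had a median of -0.49. Cd28, the receptor whose signal T cells need for first activation, was not detected, with Cy3 values of 37.7 (wild type) and 18.3 (transgenic). Its log2 ratio was 0.10 on array 1 and -0.14 on array 2. Among 7 detected ligands on partner cells 1 was called lower, beside 3.53% of all genes, and the median of the 7 was -0.39. The called ligand was Cd48, which binds CD2, at -1.70 ± 0.35. Its wild-type values were 190.5 (Cy5) and 455 (Cy3) and its transgenic values 53.5 (Cy3) and 15.5 (Cy5). CD48 is present on most leukocytes. Icosl, the ligand of ICOS, was well above background in all 4 measurements and stood at -0.39 ± 0.35.

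Of the cytotoxic genes, Nkg7 was measured in both pools. NKG7 is a membrane protein of the cytotoxic granules of NK and T cells. The brighter Nkg7 probe (A_52_P24447) gave 259.5 (Cy5) and 802 (Cy3) in the wild-type pool and 142.5 (Cy3) and 58.0 (Cy5) in the transgenic pool, each well above background. Its log2 ratios of -1.64 and -1.41 gave a mean of -1.52 ± 0.17. The dimmer probe (A_51_P499195) gave 49.0 (Cy5) and 124 (Cy3) against 49.0 (Cy3) and 29.0 (Cy5), and a mean of -0.31 ± 0.26, so the probes differ in size though not in sign. Gzma (probe A_51_P162794), which encodes granzyme A, was at the edge of detection, with wild-type values of 17.0 (Cy5) and 39.0 (Cy3) and transgenic values of 28.0 (Cy3) and -16.0 (Cy5). In Cy3 the pools lay close together and were both above background, and in Cy5 neither was. Its log2 ratio was -0.04 on array 1 and -0.82 on array 2, a mean of -0.43 ± 0.55 that supports no call.

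The NK side of the label rests on few genes. Of 6 NK cell markers 1 was detected, Nkg7, and Ncr1, Klrb1c, Klrk1, Gzma and Prf1 were not. Prf1, the pore-forming perforin, gave Cy3 values of 56.0 (wild type) and 21.0 (transgenic), and granzyme B (Gzmb) 69.5 and 46.0. Their normalized log2 ratios were not lower, at 0.26 on array 1 and -0.08 on array 2 for Prf1 and 0.22 and 0.20 for Gzmb. On the list of granule and effector genes 3 of 10 detected genes were called lower and 0 higher, beside 3.53% and 1.09% of all genes. The list median was -0.55. Besides Nkg7 the called genes were the granule proteoglycan serglycin (Srgn, -2.70 ± 0.13) and lymphotoxin beta (Ltb, -2.20 ± 0.19), both also made by other leukocytes. Of 6 detected NK receptor genes 2 were called lower, again beside 3.53% of all genes. They were the signalling adaptors Fcer1g (-1.62 ± 0.10) and Tyrobp (-1.51 ± 0.04), which macrophages share. Klrd1, the CD94 subunit of NK receptors, stood at -0.78 ± 0.03 and was not called.

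**Figure D2:**
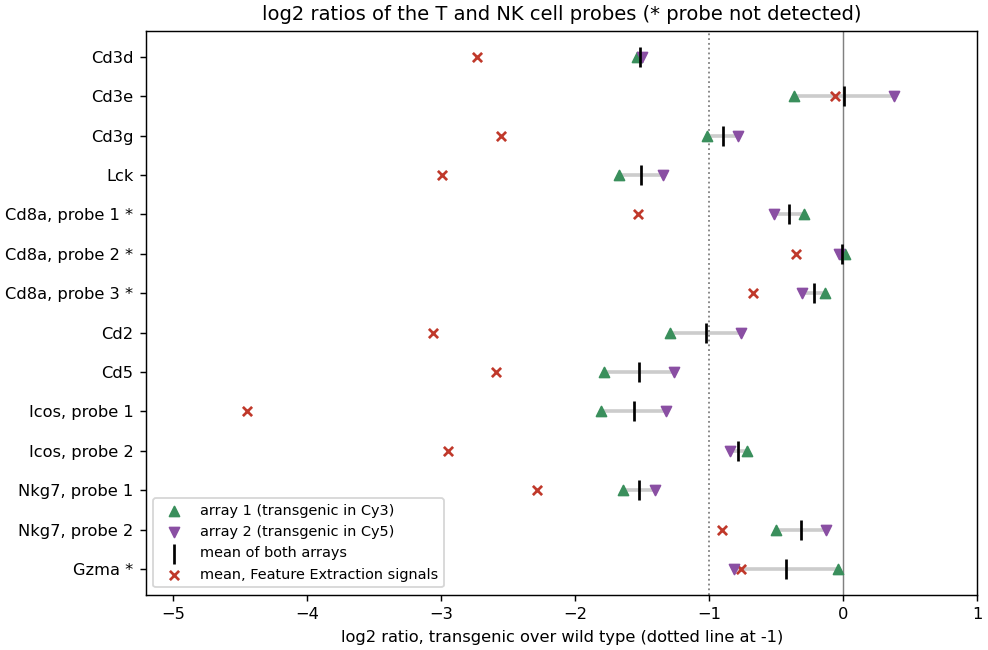
The log2 ratio of transgenic over wild type for each of the 14 probes on array 1, on array 2 and as their mean, with the mean from Feature Extraction's processed signals beside it. Log2 ratios were below 0 on both arrays for 12 of 14 probes (23.7% of all probes), while the Cd3e probe and the second Cd8a probe changed sign, and Feature Extraction's values were lower than the loess means for all 14.

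The size of the difference depended on how the dim transgenic signal was treated, and its direction did not for the 6 called genes. On single arrays that direction was fixed by the rule, which asks for a lower ratio on each array. The background correction used here adds 50 to each intensity, which draws ratios of dim probes towards 0. With Feature Extraction's processed signals the mean log2 ratio of Cd3d was -2.73, that of Lck -2.996, that of Cd2 -3.06, that of Cd5 -2.59, that of Icos -4.45 and that of Nkg7 -2.28. Cd3g stood at -2.56 in that form and then met the rule, so that 7 members were called lower beside 7.05% of all genes. With an added offset of 16 in place of 50 the same number, 7, was called beside 4.68% of all genes. Without background subtraction 5 were called beside 3.08%, and Cd2 at -0.82 was the one lost. Median centring in place of loess called 6 beside 2.91%, and leaving out the filter on dim probes called 6 beside 1.54%. On array 2 alone 5 passed the 2-fold line beside 4.24%, and on array 1 alone 7 beside 4.31%. Averaging the detected probes of a gene called 5 beside 3.33%, and Nkg7 at -0.92 was the one lost. Taking the probe of smallest difference called 4 beside 3.18%, without Nkg7 at -0.31 and Icos at -0.78. The call of Nkg7, the only called gene with transgenic signal above background on both arrays, thus depended on the choice of probe. With the line at 1.5-fold 7 were called beside 5.49%, and at 3-fold 0 beside 1.70%. Cd3e lay between -0.36 and 0.38 in each of these forms and on each array.

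The dyes could also be taken one at a time, an alternative chosen after the data were seen. Comparing Cy3 of array 1 with Cy3 of array 2 after quantile scaling put Cd3d at -2.27, Icos at -2.52, Cd5 at -1.95, Nkg7 at -1.73 and Lck at -1.73, with 7 members below the 2-fold line beside 4.70% of all genes. In Cy5 the same genes stood at -0.95, -1.02, -1.20, -1.30 and -1.35, and 4 members were below the line beside 3.06%. The Cy5 transgenic values sat at background for 12 of 14 probes, which limits how large a Cy5 ratio can be. Cd3e was at 0.12 in Cy3 and 0.01 in Cy5.

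**Figure D3:**
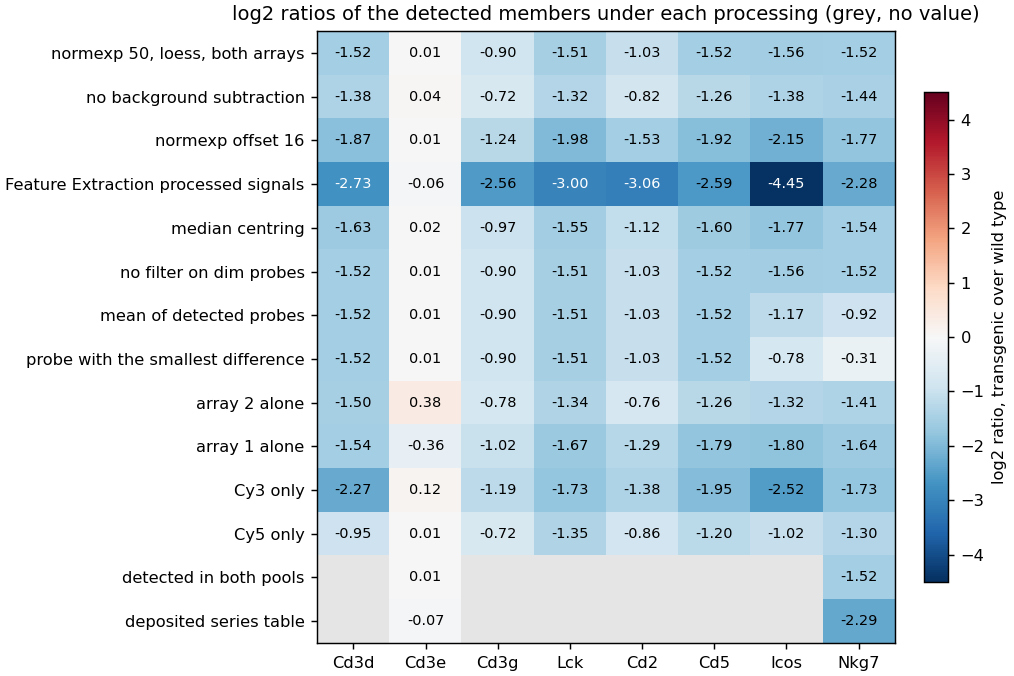
Mean log2 ratio of each detected member (columns) under each processing (rows), from blue (lower in the transgenic pool) to red (higher), with grey where no value was had. Each of the 6 called genes was below 0 in each row that gave a value, while Cd3e ran from -0.36 to 0.38. For called genes the rule itself fixed the sign in the rows of single arrays.

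The authors' deposited table of 15511 probes held 2 of the 14 member probes, those of Cd3e and the brighter one of Nkg7. In the authors' deposited table Nkg7 stood at -2.29 and Cd3e at -0.07 as means of the array columns, and 1 of the 2 was called lower beside 3.45% of all genes. By detection in both pools on both arrays, too, Nkg7 and Cd3e were the only members kept, and Nkg7 the only one called, beside 2.22% of all genes.

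**Figure D4:**
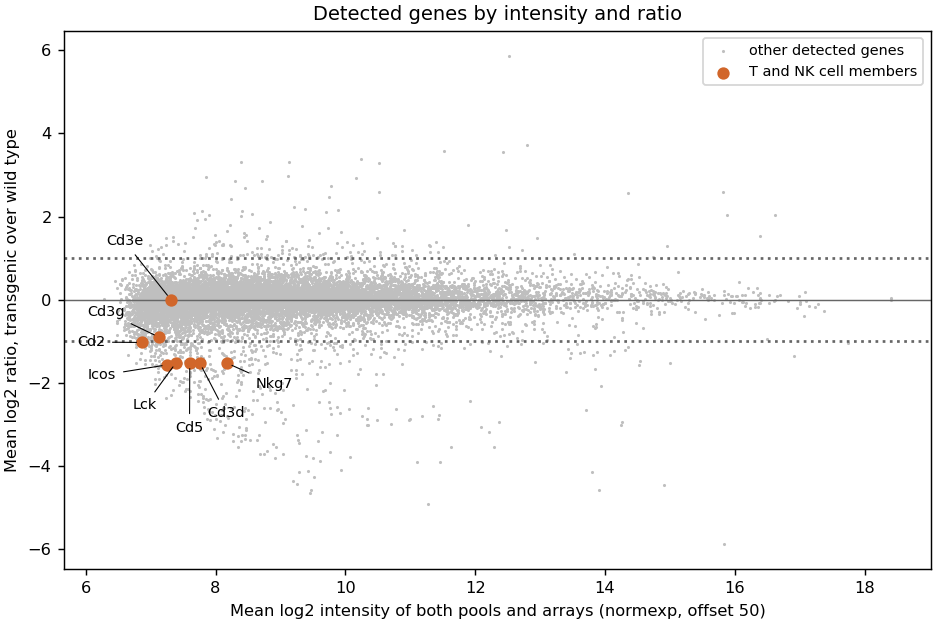
Mean log2 ratio (transgenic over wild type) against mean log2 intensity for the 13899 detected genes, 1 point per gene, with the 8 detected members in orange and dotted lines at -1 and 1. The members lie between intensities of 6.87 and 8.18, at the dim end of the genes, and 6 of them lie below -1.

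Over a wider set of 169 genes of T and NK cell functions, which contains the 10 members, 157 were on the array and 92 were detected. Of these 32 were called lower and 0 higher, beside 3.53% and 1.09% of all genes, and 75 were below 0 on both arrays, against 27.3% of all detected genes. Without the 10 members the counts were 26 called lower of 84 detected. Detection again favoured the wild-type pool, since 47 of those 84 passed only through it, and 14 of the 47 were called lower, beside 15.7% of all genes that passed in this way. Among the other 37, detected in both pools, 12 were called lower, beside 2.22% of all genes detected in both pools. The set was chosen with earlier results of these data known, and many of its genes are shared with other leukocytes.

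Receptors for cytokines and homing were lower in part. Of 19 detected genes 6 were called lower, beside 3.53% of all genes, with a median of -0.81. Of the 19, 18 were below 0 on both arrays, beside 27.3% of all detected genes. Most of the 19 passed detection only through the wild-type pool, where the rule called 15.7% of all genes lower and their median was -0.29. Largest among the called genes were Itgb7, the integrin chain that guides lymphocytes to mucosa, at -1.93 ± 0.69, and Cxcr6, a chemokine receptor of resident T and NK cells, at -1.67 ± 0.16. Both were detected in both pools. Ccr2 (-1.26 ± 0.42), a chemokine receptor that monocytes also carry, and Il2rg (-1.17 ± 0.39), the common cytokine receptor chain, followed. Cxcr4 was at -1.64 on array 1 and 0.02 on array 2, a spread that leaves its direction unsettled.

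Among 10 detected chemokines and cytokines that draw or sustain T cells, 5 were called lower, beside 3.53% of all genes. The median of the 10 was -0.96. Ccl8 stood at -3.65 ± 0.13, Ccl20 at -2.50 ± 0.01, Ccl19 at -1.88 ± 0.60 and Ccl5 at -1.43 ± 0.02. CCL5 is itself a product of T and NK cells, and CCL19 is made by stromal cells of lymphoid tissue. The interferon-induced ligands of CXCR3 did not reach the rule, with Cxcl9 at -0.91 ± 0.18 and Cxcl10 at 0.26 ± 0.42. Cxcl10 was well above background in all 4 measurements.

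Lymphoid transcription factors differed least among these lists in median, at -0.15. Of 11 detected genes 1 was called lower, beside 3.53% of all genes. The called gene was Ets1 at -1.15 ± 0.33, and its other probes gave -1.11 and -0.76. Tcf7, a factor of naive and memory T cells, was at -0.59 ± 0.17. Gata3 stood at -0.21 ± 0.06 and Id2 at -0.20 ± 0.26, and both are also expressed in epithelium. Foxp3, the factor of regulatory T cells, and Eomes and Bcl11b were not detected.

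**Figure D5:**
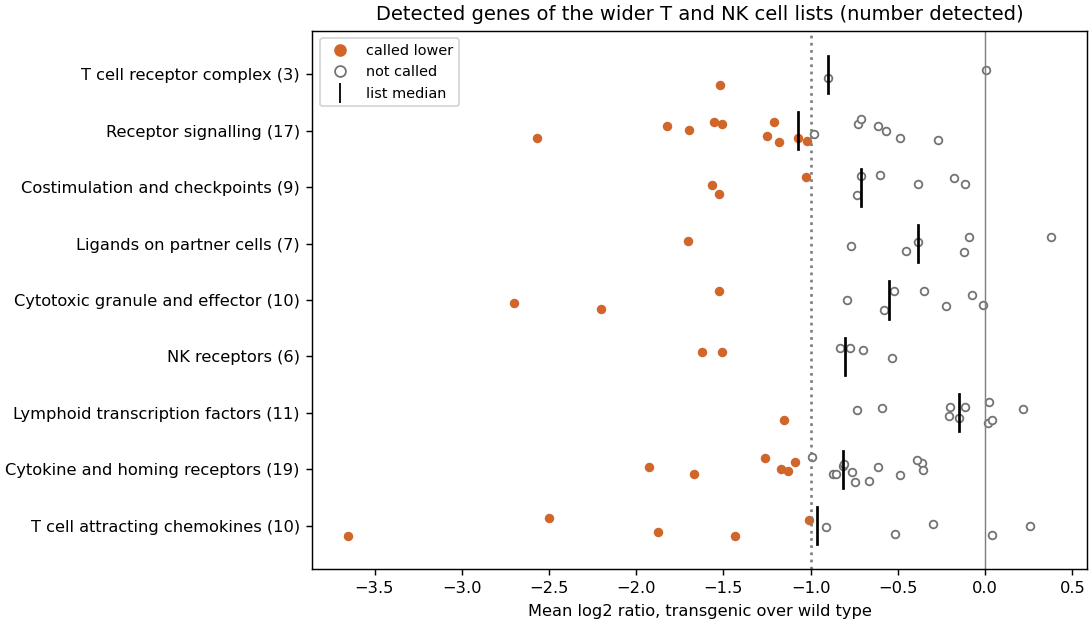
Mean log2 ratio (transgenic over wild type) of each detected gene on 9 lists of T and NK cell functions, with the number detected in brackets, filled where called lower and open where not, and a black bar at each list median. The bars run from -1.07 for receptor signalling to -0.15 for lymphoid transcription factors, and no gene was called higher; the vertical spread of points within a list carries no value.

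Markers of other leukocytes were lower in the same pool, and their part in these results was not tested. For the counts that follow, the rule called 3.53% of all genes lower. Of 6 pan-leukocyte genes 6 were called lower, with a median of -2.04 and a range from -2.79 to -1.09. Their summed net intensity was 18321 in the wild-type pool and 2100.2 in the transgenic pool in Cy3. Cd52 alone gave 11770 and 1300 of these sums. The Cy3 sums of the prostate epithelium markers were 438650 in the wild-type pool and 293070 in the transgenic pool. Of 6 detected B cell markers 5 were called lower, with a median of -3.23, and of 6 detected macrophage markers 5, with a median of -1.65. Of 3 detected neutrophil and mast cell markers 2 were called lower, with a median of -2.40. Of 5 detected markers of lymphoid stroma and high endothelium 2 were called lower, Ccl19 and Cxcl13, with a median of -0.76. The differences between these medians and those of T and NK cell genes were not tested, and the lists lie at different intensities. Stromal markers were below 0 on both arrays for 5 of 5 genes, with a median of -0.54, and 1 was called lower, the collagen gene Col3a1 at -1.11. None of 4 endothelial markers was detected. Markers of prostate epithelium had a median of 0.08 over 8 detected genes, with 1 called lower (Sbp, -1.35 ± 0.55) and 0 higher. The luminal keratins Krt8 and Krt18 stood at 0.36 ± 0.38 and -0.0043 ± 0.43.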

How the data were processed

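RNA of wild-type and ARR2PB-miR32 transgenic ventral prostate was measured on 2 two-colour arrays with swapped dyes. Agilent Feature Extraction 11.0.1.1 read the spots, per the file headers. The deposited scanner files give median spot and background intensity per dye, processed intensity, which the software had corrected for background and dye, and the log10 of red over green, which was not used since it is 0 at many dim spots. The deposited series table gives log2 ratios centred on the column median. Its direction, transgenic over wild type, was found against the scanner files.

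Median intensities were corrected with normexp (offset 50) and normalized by loess within each array in limma 3.58.1 (R 4.3.3). The loess gave weight 0 to control spots and to outliers. Outlier spots were left out of probe means, and no spot was saturated (0 spots). Ratios were turned to transgenic over wild type and averaged over the arrays. Of several detected probes of a gene the brightest stood for it. A probe printed as several spots counted as above background where over 50% of its spots were. The steps were tested on simulated intensities with known ratios.

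Symbols came from RefSeq (GRCm38.p6) by accession: 27816 of 41174 probes matched. The array's annotation build is mm9, so no probe coordinates are given, and the promoter windows carry GRCm38.p6 coordinates. The genes described and the wider lists were chosen with earlier results of these data known. Named genes were all 10 members, up to 4 called genes per list and direction, and fixed partner genes. Cxcr4, Cxcl9, Cxcl10, Klrd1, Gata3, Id2, Tcf7, Foxp3, Eomes, Bcl11b, Klrk1, Klrb1c, Ifng, Cd96, Col3a1, Krt8, Krt18 and Sbp were named after their values were seen. So were Klra3 and Klrc1. Alternatives varied the background correction, the normalization, the dim filter, the probe rule, the array, the fold and the source of values. Taking each dye alone was added after the data were seen.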

Additional observations from a re-analysis of the deposited data

How the results depend on the processing

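Members called lower (6) numbered 5 to 7 under no background subtraction, offset 16, Feature Extraction signals, median centring, no dim filter, the mean of probes and the 1.5-fold rule, and on single arrays. They numbered 4 with the probe of smallest difference and in Cy5 alone, 7 in Cy3 alone, 1 of 2 with detection in both pools or in the series table, and 0 under a 3-fold rule. Of the alternatives that gave a value, 0 turned the direction of a called gene. Single arrays could not turn it, since the rule asks for a lower ratio on each array. Leaving out the dim filter kept the same ratios for the called genes. The median of detected members (-1.51) was -1.29 without background subtraction, -1.82 with offset 16, -2.66 with Feature Extraction signals, -1.27 with no dim filter (10 genes), -0.76 with detection in both pools, -1.10 with the mean of probes, -0.96 with the probe of smallest difference, -1.18 in the series table, -1.73 in Cy3 and -0.99 in Cy5, and from -1.59 to -1.29 on single arrays. Wider-list genes called lower (32) were 62 with Feature Extraction signals, 13 with detection in both pools, 16 in the series table, 12 under the 3-fold rule, 49 in Cy3 and 21 in Cy5, and 0 were called higher under any of these. Over all genes, lower calls (491) were 980 with Feature Extraction signals, 267 with detection in both pools, 763 at 1.5-fold and 236 at 3-fold. Higher calls (151) were 276 with Feature Extraction signals, 99 under median centring, 250 at 1.5-fold, 47 at 3-fold, 285 in Cy3, 239 in Cy5, and 271 to 450 on single arrays. Higher genes were 23.5% of calls in the mean of both arrays, and 42.9% on array 1 and 35.9% in Cy5. No paired analysis was possible because each genotype has 1 pool. The number of arrays limits the precision, and the dim Cy5 signal limits the size of the ratios.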

Other observations

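Genes of the wider T and NK cell lists that did not pass detection still differed in Cy3, the more sensitive dye, an observation made after the data were seen. Of 65 such genes, 19 (29.2%) were well above background in Cy3 in the wild-type pool alone, 0 in the transgenic pool alone and 25 in both. Among all 18094 genes that did not pass detection the corresponding shares were 7.88% and 4.48%, with 34.9% in both. The median log2 ratio over both arrays was -0.13 for the 65 genes and 0.0069 for the 18094. Some of the 65 were above 0 on both arrays, among them Gzmb, Foxp3, Eomes and the NK receptor genes Klra3 and Klrc1. The genes that follow were named after their values were seen. Klrk1, the NKG2D receptor of NK and cytotoxic T cells, gave Cy3 values of 77.0 in the wild-type pool and 9.5 in the transgenic pool. Its log2 ratio was -0.18 on array 1 and -0.34 on array 2. Klrb1c, the NK1.1 antigen, gave 60.0 and 18.5, though its log2 ratio was 0.12 on array 1 and -0.56 on array 2. Ifng, the cytokine interferon gamma, gave 96.0 and 12, and Cd96, a receptor of T and NK cells, gave 93.0 and 15.0. Each of these pairs is 1 spot or probe on 1 array per pool, with no dye-swapped value above background, so no ratio is called from them. The gap between median net Cy3 values of 72.0 on array 2 and 51.5 on array 1 applies here too.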
